A study of Mus musculus with 36 samples.

Results

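Transcripts of 9 genes that mouse embryos use at the 2-cell stage were followed through a time course of forced major satellite repeat (MSR) transcription in mouse embryonic fibroblasts (MEF). The genes are Duxf3, Zscan4c, Zscan4d, Zscan4f, Zfp352, Tcstv1, Tcstv3, Usp17la and Tdpoz4, taken from the gene counts by their symbols, and they are 9 of 54842 genes counted. The set was chosen with earlier results of these data known. With an MSR-targeted activator, Zfp352 was higher than in the control line at each of 5 stages from induction on, Zscan4c from 3 to 24 h, and Zscan4d, Zscan4f, Tcstv3, Usp17la and Tdpoz4 at some of these stages. All 9 stayed at a low level, and 40.2 to 54.5% of all genes of like abundance were also higher at those stages.

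In the mouse embryo the first strong burst of zygotic transcription comes at the 2-cell stage. The homeobox factor Dux is known to switch on a group of genes there, the Zscan4 cluster among them, together with the endogenous retrovirus MERVL and its long terminal repeat MT2_Mm. The same group appears in rare cells of embryonic stem cell cultures, and chromatin repressors keep it silent in most other cells, fibroblasts included.

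Total RNA was sequenced from 36 libraries, 12 groups of 3 biological replicates. MSR-dCas9-Control MEF carry a catalytically dead Cas9 with no effector, and MSR-dCas9-Activator MEF carry dCas9 fused to the transcriptional activator VPR. In both lines the guide RNA against MSR is made all the time from the plasmid that also holds the doxycycline-inducible dCas9, and both are hygromycin-selected PiggyBac lines. Each line was sampled uninduced, induced with 10 ng/ml doxycycline, and again once the drug had been washed out for 3, 6, 12 or 24 h. Control cells were induced for 24 h and Activator cells for 6 h, so that the length of exposure and the line cannot be told apart in any comparison after induction.

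The activator was aimed at MSR and not at these genes, and the start regions of a pair of near-identical Zscan4 copies, which differ in a motif, and of Zfp352 are shown for what they hold. Promoter windows from 250 bases before to 50 bases after the start were taken from RefSeq on GRCm38.p6 for 7 of the 9 members, all but Tcstv1 and Tcstv3. The consensus binding motif of Dux was found in 0 of the 7 on either strand and in 0.0335% of 32851 mouse promoters of the same length. TGCACAC, a motif of Zscan4 proteins, was likewise found in 0 of the 7 and in 4.4% of all promoters. A shorter form of the Dux motif, TGATTNAAT, was searched on both strands and was chosen after the windows had been read. It was present in Zscan4c, Zscan4f and Duxf3 and in 0.718% of all promoters. The RefSeq start of Duxf3 lies upstream of the gene in the annotation used for positions. In the first sequence, chr7:11005495-11005794 on the plus strand, capitals mark the shorter motif. The second, chr7:11166099-11166398 on the minus strand, holds no match. The windows of Zscan4c and Zscan4d were identical in 281 of 311 aligned columns (90.4%). Gaps counted as differences there, including those at the ends, where the windows are shifted against each other. In the third, chr4:90218570-90218869 on the plus strand, capitals mark 9 copies of the unit GACAACACAC, which follow each other at a spacing of 20 to 21 bases. That unit was also noticed on reading and is present in 17 of the 32851 promoters, of which 2 hold it more than once.
Zscan4c: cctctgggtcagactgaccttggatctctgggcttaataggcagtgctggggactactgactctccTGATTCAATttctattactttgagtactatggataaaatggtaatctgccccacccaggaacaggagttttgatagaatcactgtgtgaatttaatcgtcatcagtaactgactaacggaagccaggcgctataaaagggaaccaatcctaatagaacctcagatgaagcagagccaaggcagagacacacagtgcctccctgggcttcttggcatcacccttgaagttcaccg
Zscan4d: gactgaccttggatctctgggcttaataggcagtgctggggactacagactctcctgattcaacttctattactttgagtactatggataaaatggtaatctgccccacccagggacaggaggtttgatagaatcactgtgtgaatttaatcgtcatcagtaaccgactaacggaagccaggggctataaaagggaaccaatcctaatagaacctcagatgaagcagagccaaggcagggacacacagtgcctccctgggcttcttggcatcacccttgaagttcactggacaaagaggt
Zfp352: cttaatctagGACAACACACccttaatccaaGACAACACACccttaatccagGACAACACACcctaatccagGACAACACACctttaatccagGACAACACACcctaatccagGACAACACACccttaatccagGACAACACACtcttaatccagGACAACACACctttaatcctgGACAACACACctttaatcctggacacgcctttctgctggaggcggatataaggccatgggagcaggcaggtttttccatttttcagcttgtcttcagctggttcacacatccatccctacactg

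The 3 Zscan4 genes lie on chromosome 7 of GRCm38, at 11005745 to 11010547 (Zscan4c, plus strand), 11161374 to 11166159 (Zscan4d, minus strand) and 11397915 to 11402318 (Zscan4f, plus strand). Their longest transcripts are 97.5 to 99.5% identical in the aligned part. Of all stretches of 150 bases, the length of a read, 86.2% of those in Zscan4f and 61.0% of those in Zscan4c occur unchanged in the transcript of another gene, against 13% for Zscan4d. How counts were divided among these copies is therefore uncertain for Zscan4c and Zscan4f. For Duxf3 (chromosome 10, 58229979 to 58232675, minus strand) the share was 20.1%, for Tdpoz4 (chromosome 3, 93796398 to 93797510, plus strand) 6.54% and for Usp17la (chromosome 7, 104857009 to 104862667, plus strand) 1.28%. Zfp352 (chromosome 4, 90218820 to 90225702, plus strand), Tcstv1 (chromosome 13, 119893388 to 119894785, minus strand) and Tcstv3 (chromosome 13, 120316878 to 120318178, plus strand) shared 0 such stretches. No member overlaps another annotated gene, and all 9 are protein-coding.

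Libraries held 27376846 to 57371803 gene counts. GSAT_MM, the repeat family of MSR, took 0.00178 to 0.00396% of all counts in Control, 0.0043 to 0.00804% in uninduced Activator and 0.189 to 2.78% in Activator after induction. Of 10 fibroblast markers, 9 passed the filter on low counts and Thy1 had 0 to 6 counts. The summed level of the 10 was 16000 to 19600 CPM (counts scaled to the size of the library) in Activator at 12 h and 11500 to 20400 at 24 h, against 23400 to 24900 and 24700 to 27100 in Control. Replicate 2 of Activator stood apart after induction. At each of the 5 stages it correlated least with its group mates (mean r 0.9497 to 0.9727, against 0.9614 or more in its mates), had the lowest summed level of the 9 members and the highest Pdgfrb. Its GSAT_MM share was 0.189, 0.788, 1.42, 1.45 and 0.935% from induction to 24 h. Replicate 1 had 0.281, 0.315, 0.45, 0.563 and 0.905%, and replicate 3 had 1.79, 1.41, 2.28, 2.78 and 2.68%. The relation of the members to that share was not tested.

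Member levels were low everywhere. Counts are given as deposited, and levels as CPM of the TMM-scaled library. On the scale of RPKM, which is CPM per kilobase of exon, the order of levels in Activator at 12 h was Zfp352 at 0.923 ± 0.5, Usp17la at 0.273 ± 0.0931, Tcstv3 at 0.254 ± 0.239, Zscan4f at 0.201 ± 0.0618, Zscan4c at 0.191 ± 0.0373, Tdpoz4 at 0.167 ± 0.0543, Zscan4d at 0.156 ± 0.0354, Tcstv1 at 0.0888 ± 0.038 and Duxf3 at 0.0276 ± 0.0228 (SD, n = 3). From Usp17la down to Zscan4d neighbours in this order differed by less than their SD. In bulk RNA, a few cells with much of a transcript and many cells with little cannot be told apart. A filter on low counts kept 28536 genes, 7 of the 9 members among them. In the Control libraries alone only Zfp352 and Usp17la would have passed it, so that Zscan4c, Zscan4d, Zscan4f, Tcstv3 and Tdpoz4 entered the test through the line in which they were high. Counts of members called are therefore a description and support nothing by themselves.

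**Figure D1:**
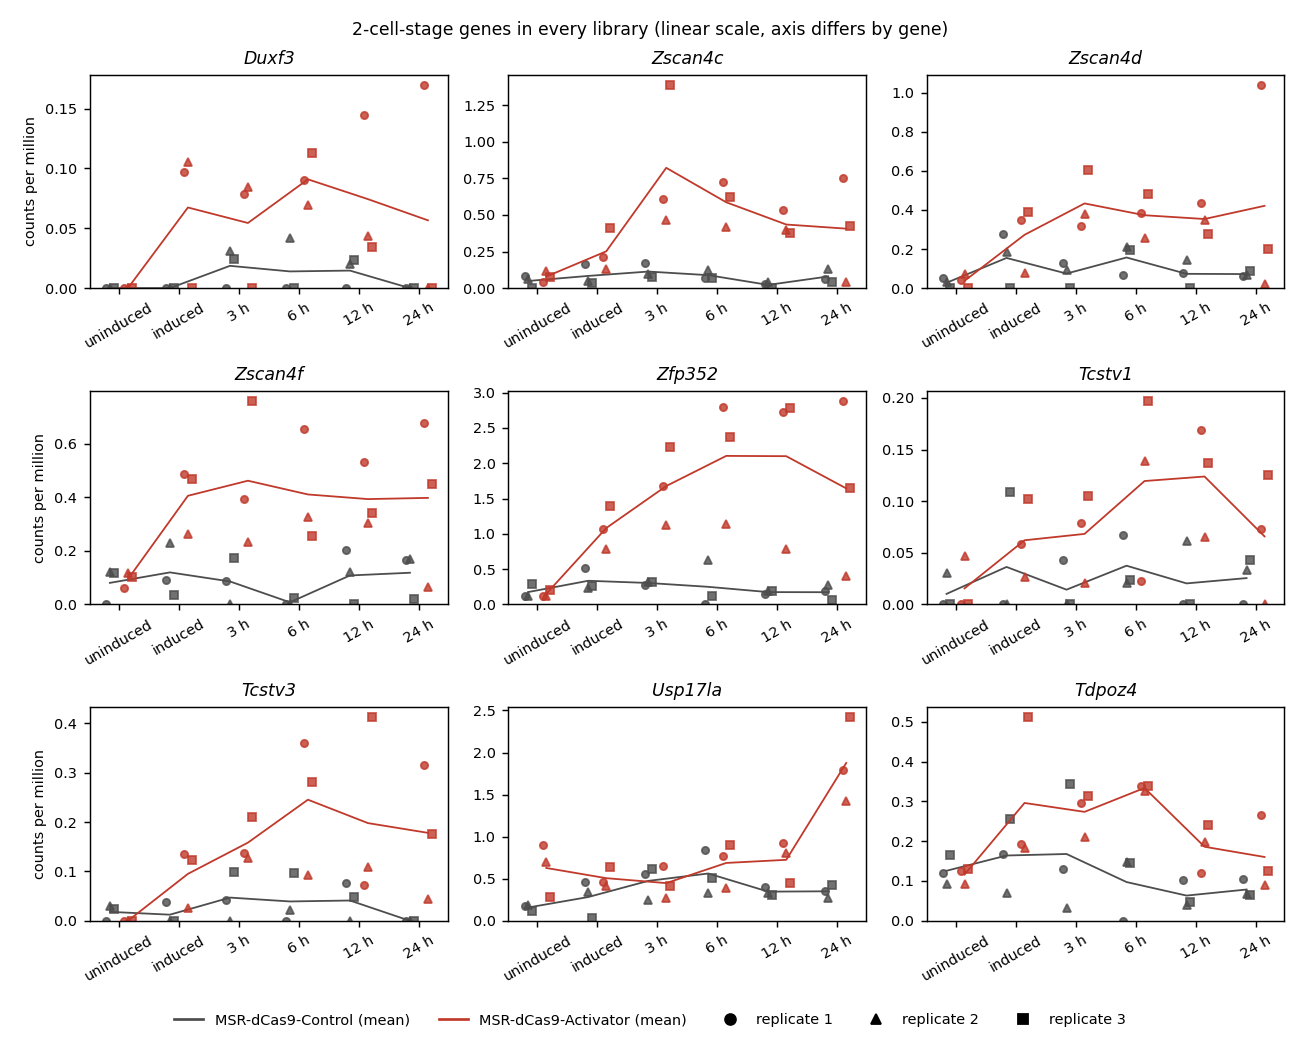
Level of each member (vertical axis, CPM on a linear scale of its own for each gene) at the 6 stages (horizontal axis), in grey for MSR-dCas9-Control and in red for MSR-dCas9-Activator. Each symbol is a library, its shape gives the replicate number and lines join the means of 3. Zfp352 separates from induction on, Usp17la most clearly at 24 h, and the red triangles (Activator replicate 2) lie low for most members at 24 h.

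Duxf3 belongs to the Dux homeobox genes, whose protein switches on the 2-cell programme. It had 0 counts in all 6 uninduced libraries of both lines and in the 3 induced Control libraries. Induced Activator libraries had 5, 4 and 0 counts. At 3 h they were 4, 4 and 0 against 0, 1 and 1 in Control. At 6 h the values were 4, 3 and 4 in Activator and 0, 2 and 0 in Control, and at 12 h they were 6, 2 and 1 against 0, 1 and 1. At 24 h all counts were from a single Activator library, with 7, 0 and 0 against 0, 0 and 0. As CPM the Activator libraries lay above every Control library at 6 h (ratio 5.32, 95% exact interval 1.16 to 49.4) and 12 h (5.07, 1.05 to 48.2), where the two-sided exact permutation p was 0.1, the smallest that 3 against 3 can give. At 3 h they overlapped (ratio 3.5, 0.698 to 33.8, exact p = 0.5). In the induced libraries Duxf3 was at least 2.7-fold higher in Activator than in Control, taking 3 counts over the group as the limit that a count of 0 allows, but the libraries overlapped there (exact permutation p = 0.3) and at 24 h (exact permutation p = 0.5). These intervals and limits cover counting error only. Duxf3 missed the filter and has no value in the main test.

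The Zscan4 genes encode proteins with a SCAN domain and zinc fingers and are linked to telomere lengthening in embryonic stem cells. Zscan4c had 5, 2 and 0 counts in uninduced Control and 2, 5 and 3 in uninduced Activator. At 3 h it had 8, 3 and 3 counts in Control and 31, 22 and 53 in Activator, a log2 fold change of 2.79 (SE 0.62, adjusted p = 0.000214). The lines also did not overlap at 6 h, with 2, 6 and 3 against 32, 18 and 22 (log2 fold change 2.56, SE 0.65, adjusted p = 0.000937), nor at 12 h, with 1, 2 and 0 against 22, 18 and 11. At 12 h Control held only 3 counts in all, and the ratio of the summed counts was 19.1 (95% exact interval 6.19 to 95.9; adjusted p = 8.62e-05). These 3 calls held without each library in turn. At 24 h the values were 3, 4 and 2 against 31, 2 and 17 and overlapped, with a log2 fold change of 2.34 (SE 0.71, adjusted p = 0.00519), and the call was lost without Activator replicate 1 (1.73, adjusted p = 0.0712).

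Zscan4d, the copy mainly transcribed in 2-cell embryos, had 15, 8 and 0 counts in induced Control and 18, 3 and 19 in induced Activator, which overlap (log2 fold change 0.73, SE 0.79, adjusted p = 0.444). At 3 h it had 6, 3 and 0 against 16, 18 and 23 counts and was higher in Activator (log2 fold change 2.57, SE 0.88, adjusted p = 0.0111). That call was lost without Control replicate 3 (2.03, adjusted p = 0.0599) or Activator replicate 3 (2.16, adjusted p = 0.0522). Zscan4d was also higher at 12 h (log2 fold change 2.17, SE 0.88, adjusted p = 0.0285) and not past the threshold at 6 h (1.08, SE 0.79, adjusted p = 0.215). The 12 h call was lost without Control replicate 1 or 3 or Activator replicate 2, with adjusted p between 0.0651 and 0.0966. At 24 h the Activator counts were 43, 1 and 8, and the call there (2.35, SE 0.89, adjusted p = 0.0234) fell to 0.75 (adjusted p = 0.569) without Activator replicate 1 and to 1.95 (adjusted p = 0.124) without Control replicate 1.

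Zscan4f, which shares most of its 150-base stretches with other copies, had 5, 10 and 1 counts in induced Control and 25, 10 and 23 in induced Activator (log2 fold change 1.61, SE 0.76, adjusted p = 0.0699). That value passed without Control replicate 2 (2.67, adjusted p = 0.0176) or with replicate number 2 left out of both lines (2.86, adjusted p = 0.00717). At 6 h the counts were 0, 0 and 1 against 29, 14 and 9, a ratio of 50.3 with a 95% exact interval of 8.63 to 2020 (adjusted p = 0.000432, held without each library). It was also higher at 3 h (log2 fold change 2.31, SE 0.8, adjusted p = 0.0117) and 12 h (1.83, SE 0.78, adjusted p = 0.0352). The 3 h call was lost without Control replicate 1 (2.11, adjusted p = 0.0561) or Activator replicate 3 (1.73, adjusted p = 0.0865). The 12 h call was lost without Control replicate 3, Activator replicate 1 or Activator replicate 2, at values of 1.31, 1.81 and 1.92. At 24 h Zscan4f had 8, 5 and 1 against 28, 3 and 18 counts and was not past the threshold (1.73, SE 0.79, adjusted p = 0.0553), but was so without Control replicate 2 (2.13, adjusted p = 0.0396) or Activator replicate 2 (2.21, adjusted p = 0.0116).

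Zfp352, a zinc-finger gene transcribed at the 2-cell stage, was called at all 5 stages from induction on. Uninduced libraries had 7, 4 and 12 counts in Control and 6, 5 and 8 in Activator. Induced libraries had 28, 10 and 7 in Control and 55, 30 and 68 in Activator, so the lines no longer overlapped (log2 fold change 1.63, SE 0.6, adjusted p = 0.023). That first call was lost without Control replicate 2 (1.58, adjusted p = 0.0591), Control replicate 3 (1.45, adjusted p = 0.0806) or Activator replicate 3 (1.51, adjusted p = 0.068). From 3 h on each call held without each library in turn. The counts were 13, 10 and 13 against 85, 53 and 85 at 3 h, where the log2 fold change was 2.45 (SE 0.61, adjusted p = 0.000849). They were 0, 30 and 5 against 124, 49 and 84 at 6 h (2.7, SE 0.61, adjusted p = 0.000283), where leaving out Control replicate 2 raised the log2 value to 5.09. At 12 h they were 6, 9 and 8 against 113, 36 and 81, a difference of 3.44 (SE 0.64, adjusted p = 2.91e-05) that corresponds to 10.8-fold. At 24 h the 9, 8 and 3 counts of Control stood against 119, 18 and 66 (3.22, SE 0.67, adjusted p = 0.000172).

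Tcstv1 and Tcstv3 belong to a gene group of chromosome 13 that is variably transcribed at the 2-cell stage, and their aligned transcripts are 94.5% identical. Tcstv1 had 0 to 3 counts in every Control library and missed the filter. In Activator it had 3, 1 and 5 counts when induced and 7, 3 and 4 at 12 h, against 0, 3 and 0 in Control, which did not overlap as CPM (exact permutation p = 0.1, the smallest possible; ratio 5.25, 95% exact interval 1.47 to 28.5). At the other stages after induction Tcstv1 overlapped, with exact permutation p from 0.2 to 0.5. Tcstv3 had 0 counts in all uninduced Activator libraries and 7, 1 and 6 after induction, against 2, 0 and 0 in induced Control. It was higher in Activator at 6 h (0, 1 and 4 against 16, 4 and 10 counts; log2 fold change 2.44, SE 0.78, adjusted p = 0.00698, held without each library) and at 12 h (3, 0 and 2 against 3, 5 and 12; 2.2, SE 0.81, adjusted p = 0.017). The 6 h call of Tcstv3 was lost when 1 replicate number was left out of both lines (adjusted p = 0.0833). At 3 h its call (1.76, SE 0.79, adjusted p = 0.0491) was lost without any of 5 of the 6 libraries, all but Activator replicate 1, with adjusted p from 0.053 to 0.151. The 12 h call was lost without Control replicate 3 (2.11, adjusted p = 0.0625) or Activator replicate 3 (1.66, adjusted p = 0.131). At 24 h Tcstv3 had 0 counts in all 3 Control libraries and 13, 2 and 7 in Activator, which makes it at least 7.22-fold higher (adjusted p = 0.000387, held without each library).

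Usp17la, a deubiquitinating enzyme of the Usp17 family, had a course of its own. It already differed before induction, with 10, 6 and 5 counts in Control and 43, 30 and 11 in Activator (log2 fold change 2.02, SE 0.48, adjusted p = 0.029). That call was lost without any of 5 of the 6 libraries, all but Activator replicate 3, with adjusted p from 0.0586 to 0.177. At 3 h the lines had 26, 8 and 25 against 33, 13 and 16 counts, and the difference of -0.11 (SE 0.43, adjusted p = 0.829) turned to 0.03 with DESeq2 or DESeq2 size factors. At 6 h it was 0.32 (SE 0.41, adjusted p = 0.478) and turned to -0.42 with scaling to mitochondrial mRNAs. At 12 h it was 1.09 (SE 0.42, adjusted p = 0.0219), a call lost without Control replicate 1 (1.05, adjusted p = 0.0612) or Activator replicate 2 (0.89, adjusted p = 0.0938). The clearest separation came at 24 h, with 17, 8 and 20 counts in Control and 74, 64 and 97 in Activator, a log2 fold change of 2.41 (SE 0.4, adjusted p = 8.13e-06) that held without each library. Without Activator replicate 2 the value was 2.47.

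Tdpoz4, a gene for a protein with TRAF and POZ domains, was higher at 6 h, with 0, 7 and 6 counts in Control and 15, 14 and 12 in Activator (log2 fold change 1.63, SE 0.55, adjusted p = 0.00882). Without Control replicate 1, the library at 0, the value was 1.15 (adjusted p = 0.0532). It was also higher at 12 h (1.55, SE 0.64, adjusted p = 0.0311), a call lost without Control replicate 2 or 3 or Activator replicate 2, with adjusted p from 0.0741 to 0.114. At 24 h the 5, 2 and 3 counts of Control overlapped with 11, 4 and 5 (1.01, SE 0.63, adjusted p = 0.162).

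**Figure D2:**
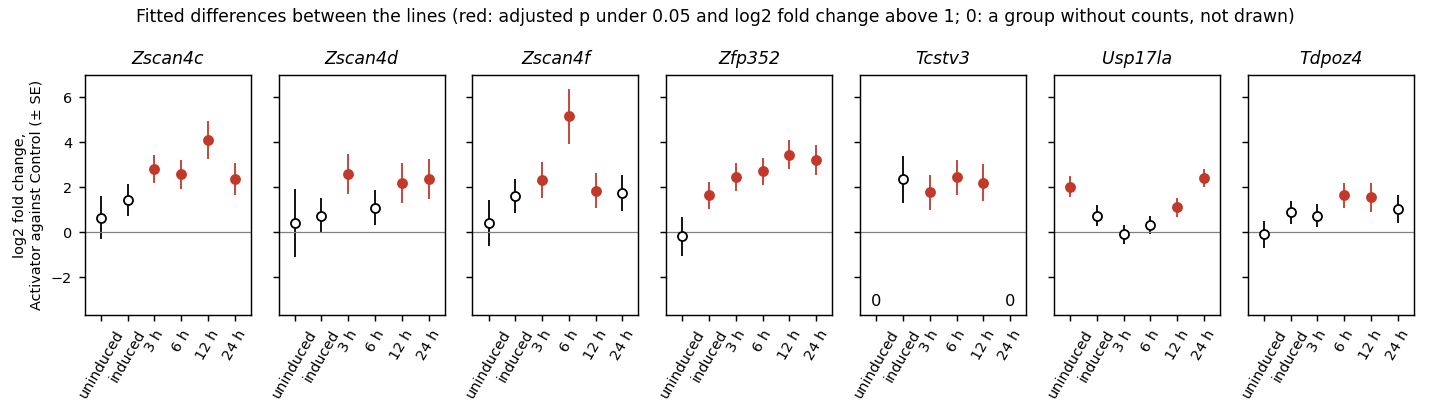
Fitted log2 fold change of Activator against Control (vertical axis, error bars are SE) at the 6 stages for the 7 members tested. Filled red points are called and open black points are not, and a 0 marks the stages at which a group had no counts of Tcstv3. Zfp352 is the member with filled points at all 5 stages after induction.

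Seen together, the number of members called higher (adjusted p under 0.05 and log2 fold change above 1) was 1 of 7 before induction, where 0.641% of all genes were called higher, and 1 of 7 after it, against 22.1%. After removal of doxycycline 5 of 7 were higher at 3 h (27.1% of all genes), 5 of 7 at 6 h (28.6%), 7 of 7 at 12 h (31.3%) and 5 of 7 at 24 h (27.9%). In either direction 34.3% of all genes were called when induced and 45.7, 48.2, 50.2 and 35.2% at the later stages. Among the members tested, 0 were called lower at any stage in edgeR. Genes of low abundance were called higher more often than others, so the share was also taken over the 10192 genes whose mean normalised count lay in the range of the tested members, 3.63 to 35.8, a comparison added after the data had been seen. Of these 40.2% were called higher when induced and 48.5, 50.5, 54.5 and 50% at the later stages, and 11.3, 16.4, 16.6, 13.9 and 5.82% were called lower. The median log2 fold change of the tested members was 1.43, 2.31, 2.44, 2.17 and 2.35 at the 5 stages after induction, and that of genes in the same range was 0.81, 1.16, 1.22, 1.59 and 1.25. The upper quartile of that range was 3.31, 4.26, 4.28, 4.81 and 3.88 at these stages, and the members above it were Zscan4f at 6 h (5.14) and, by a fitted value against 0 Control counts, Tcstv3 at 24 h. Every Activator library lay above every Control library for 1, 2, 5, 5, 6 and 3 of the 7 tested members at the 6 stages, and for 8.58, 31.8, 39.8, 38.1, 39.9 and 32.7% of all genes tested. Of the other 2 members the same held for Duxf3 at 6 and 12 h and Tcstv1 at 12 h. Leaving out Activator replicate 2 at 24 h gave 6 called in place of 5, with Zfp352 at 3.63 and Zscan4c at 2.84. Scaling to the 13 mitochondrial mRNAs moved the median of all genes at 12 h from 0.12 to -0.49 and the calls over all genes from 8938 higher and 5381 lower to 7457 higher and 9776 lower. Under that scaling 2 of 7 members were called at 12 h.

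**Figure D3:**
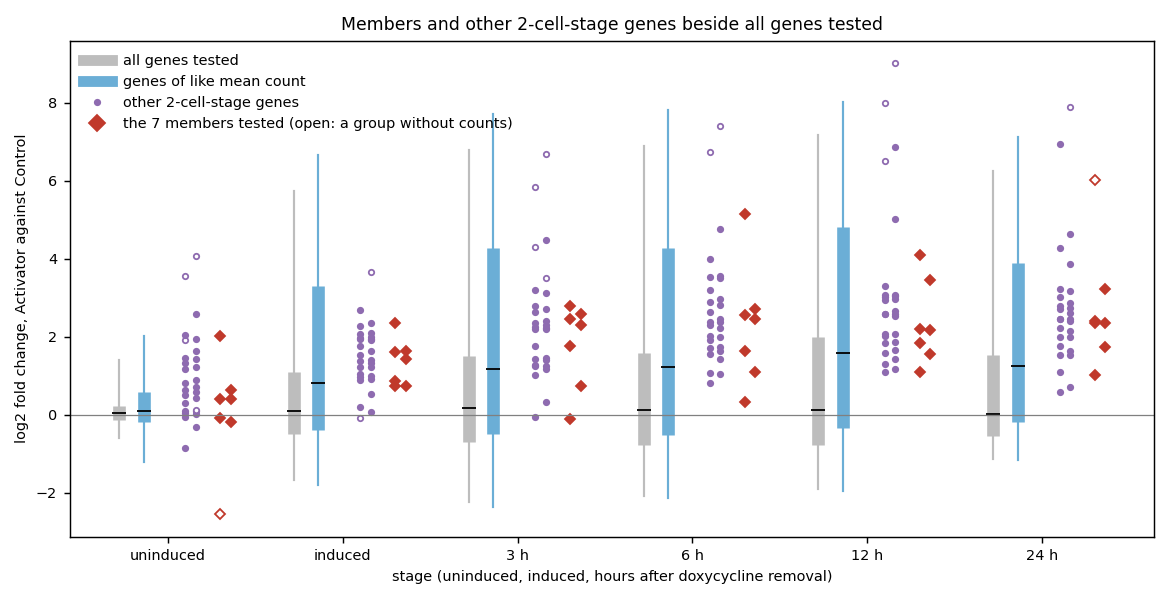
Log2 fold change of Activator against Control (vertical axis) at the 6 stages. Bars span the quartiles, thin lines the 5th to 95th percentile and black marks the median of all genes tested (grey) and of genes in the members' range of mean count (blue), with other 2-cell-stage genes in purple and the 7 members in red. Open symbols have a group without counts, so their height depends on the fit. After induction the members lie above the median of all genes, except Usp17la at 3 h (-0.11 against 0.16), and mostly inside the blue range.

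The change from the uninduced state was compared between the lines, which takes out any difference present before induction. On induction 0 of 7 members passed in edgeR, 1 of 7 at an unadjusted p under 0.05 and 0 in DESeq2, against 9.14% of all genes called higher. All these comparisons share the uninduced groups. In either direction 19.7, 30.3, 32.1, 33.8 and 16.8% of all genes were called from induction to 24 h, and of genes in the members' range 7.75% were called lower on induction. At 3 h Zfp352 rose by 2.64 more in Activator than in Control on the log2 scale (SE 1.08, adjusted p = 0.0452), where 12.8% of all genes were called higher, and Usp17la changed by -2.13 (SE 0.65, adjusted p = 0.00827), where 17.5% were called lower. At 6 h Zscan4f (4.73, SE 1.79, adjusted p = 0.0294) and Zfp352 (2.89, SE 1.08, adjusted p = 0.0277) passed upwards and Usp17la (-1.7, SE 0.64, adjusted p = 0.0283) downwards, against 13.7% higher and 18.4% lower. The mean of Usp17la rose in Control from 0.158 CPM uninduced to 0.474 at 3 h and 0.562 at 6 h. In Activator it was 0.628, 0.448 and 0.688. At 12 h Zscan4c (3.44, SE 1.4, adjusted p = 0.0408) and Zfp352 (3.63, SE 1.11, adjusted p = 0.00806) passed, against 16.4%, and at 24 h Zfp352 (3.41, SE 1.13, adjusted p = 0.0211) and Tcstv3 (adjusted p = 0.0138) passed, against 11.2%. Tcstv3 had 0 counts in uninduced Activator and in Control at 24 h, so no fitted size is given. Within Activator it was at least 7.5-fold higher at 24 h than uninduced, and in Control it had 0, 1 and 1 counts uninduced and 0, 0 and 0 at 24 h. Of these 9 calls, Usp17la at 3 h and Zfp352 at 12 h held without each single library. The other 7 were each lost without at least 1, as listed in the closing section. Usp17la at 3 h and Zfp352 at 12 h were each lost when 1 replicate number was left out of both lines. Their adjusted p then reached 0.111 and 0.157.

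Induction was also examined within each line. In Control 0 of 7 members differed between the induced and the uninduced state in edgeR and 0 in DESeq2, 1 of 7 at an unadjusted p under 0.05, where 0.0175% of all genes were called higher. That member was Zscan4d, with 3, 1 and 0 counts uninduced and 15, 8 and 0 induced. The median log2 fold change of the 7 in Control was nevertheless 0.87, against 0.05 for genes in the members' range, and all 7 fitted values were above 0. With scaling to mitochondrial mRNAs 6 of 7 were above 0 (median 0.63), and without replicate number 1 the median was 0.37, again with 6 of 7 above 0. The other 2-cell-stage genes listed further on had a median of 1.4 in this comparison, with 0 of 28 called. In Activator 5 of 7 were higher after 6 h of doxycycline, where 20.5% of all genes and 37.4% of genes in the members' range were. Zfp352 rose from 6, 5 and 8 to 55, 30 and 68 counts (log2 fold change 2.85, SE 0.68, adjusted p = 0.000866) and Tcstv3 was at least 4.36-fold higher (adjusted p = 0.00424), and both held without each library. Tcstv3 was lost when 1 replicate number was left out of both lines (adjusted p = 0.0706). Zscan4d (2.78, SE 1.02, adjusted p = 0.0203), Zscan4f (2.07, SE 0.79, adjusted p = 0.0251) and Tdpoz4 (1.28, SE 0.53, adjusted p = 0.0398) also passed. Zscan4d was lost without uninduced replicate 1 or 3 or induced replicate 3, with adjusted p from 0.0755 to 0.0962. Zscan4f was lost without replicate 1 or 3 of either group, with adjusted p from 0.0544 to 0.124. Tdpoz4 was lost without any uninduced replicate or induced replicate 3, with adjusted p from 0.0674 to 0.263. Zscan4c (1.63, SE 0.72, adjusted p = 0.0512) and Usp17la (-0.31, SE 0.41, adjusted p = 0.523) did not pass.

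Over the whole time course, in a model of line, time point and replicate, 6 of 7 members were higher in Activator, where 27.9% of all genes and 51% of genes in the same range were. The model fits a single line difference to all 6 stages, the uninduced one included. It averages differences that changed with the stage, such as Usp17la at 2.02 uninduced, -0.11 at 3 h and 2.41 at 24 h. The log2 differences were 2.37 for Zscan4c (SE 0.32, adjusted p = 5.99e-08), 2.33 for Zfp352 (SE 0.33, adjusted p = 1.26e-07), 2.31 for Tcstv3 (SE 0.4, adjusted p = 4.47e-06), 1.97 for Zscan4f (SE 0.38, adjusted p = 2.03e-05), 1.63 for Zscan4d (SE 0.38, adjusted p = 0.000215) and 1.06 for Usp17la (SE 0.24, adjusted p = 0.000131). The first 5 held without each of the 36 libraries. Usp17la fell under the limit on the fold change without Control 24 h replicate 1 (0.97) or replicate 2 (0.99). Tdpoz4 missed that limit at 0.95 (SE 0.24, adjusted p = 0.000559) and passed it, at 1 to 1.06, when any of 11 single libraries was left out. With no filter on low counts, where 48106 genes were tested, Duxf3 (2.41, SE 0.57, adjusted p = 0.000477) and Tcstv1 (1.61, SE 0.48, adjusted p = 0.00346) were also higher over the time course. Duxf3 averaged 1.38 normalised counts and had 0 counts in 13 of 18 Control libraries. Tcstv1 averaged 2.11 and had 0 in 9 of 18. Both values thus rest on few counts. The exact permutation p of both genes was 0.1 or above at every stage. With 3 against 3 it cannot be below 0.1, so it cannot decide at a single stage.

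The members followed each other to different degrees across the 12 group means of log2 CPM, which share their libraries. Without Usp17la, Pearson's r ranged from 0.668 between Zscan4d and Tdpoz4 to 0.918 between Zscan4f and Zfp352. It was 0.894 between Zscan4c and Zfp352 and 0.906 between Zfp352 and Tcstv3. With Usp17la it was between 0.216 (Tdpoz4) and 0.57 (Tcstv3). Over all genes tested, those most like Zfp352 were Gm13626 (0.995), Tecta (0.986) and Spesp1 (0.986), and those most like Zscan4c were Gm29371 (0.969), Akt2-ps (0.968) and Stx8 (0.966). Those most like Usp17la were Ifi207 (0.921), 1110002J07Rik (0.92) and Gm43714 (0.915). Within 100 kb of Zscan4c, Zscan4d or Zscan4f the tested genes that are not members were Gm4157 and Zscan4e, and 0 of them were called at 12 h. Near Tcstv1, 1 of 1 tested neighbours was higher at 12 h, near Tcstv3 2 of 3 and near Usp17la 1 of 4, where 31.3% of all genes were called higher. Near Duxf3 1 of 2 was lower, where 18.9% were. Zfp352 and Tdpoz4 had 0 tested neighbours. Not all of these neighbours are unrelated to the members. Those near Tcstv3 were AF067061, BC147527 and Gm20900, and at least AF067061 is also among the other 2-cell-stage genes below. Near Usp17la they were Gm4887, Gm5900 and the family copies Usp17lb and Usp17le, whose aligned transcripts are 90.8 and 94.9% identical to that of Usp17la.

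Among other genes of the 2-cell stage, those called were higher in Activator. Of 42 listed, 40 were in the gene counts and 28 were tested. Before induction 0 of 28 differed in edgeR, 4 of 28 at an unadjusted p under 0.05. On induction 13 were higher, and 19, 24, 25 and 24 at the later stages, with 0 lower at any stage, against the shares of all genes given above, after the same filter on low counts. Genes with few Control counts could pass that filter through Activator alone. These counts of genes called are therefore a description and support nothing by themselves. The median log2 fold change of the 28 was 0.77 before induction, or 0.72 with genes of a group at 0 set to their bound, and 2.58 at 12 h. The 3 with the largest fitted values at 12 h were Obox6, Obox5 and Ddit4l, whose order is not known because 2 of them had 0 Control counts. Obox6 had 59, 50 and 61 Activator counts against 0, 0 and 0 in Control and was at least 63.8-fold higher (adjusted p = 3.32e-09). Obox5 had 42, 17 and 26 against 0, 0 and 0 and was at least 31.9-fold higher (adjusted p = 2.39e-06). Obox genes encode homeobox proteins of the oocyte and early embryo. Ddit4l, an inhibitor of mTOR signalling, had 45, 52 and 43 counts against 1, 0 and 0, a ratio of 158 (95% exact interval 27.8 to 6270, adjusted p = 2.8e-09). For the change from uninduced less that in Control, 1, 2, 2, 3 and 1 of 28 passed from induction to 24 h, where 9.14, 12.8, 13.7, 16.4 and 11.2% of all genes and 11.8, 18.1, 19.1, 23.4 and 15.1% of genes in the members' range were called higher.

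Of 6 known activators of the 2-cell programme, 4 were tested. Higher were 0 before and on induction and 1 at each later stage, against 27.1 to 31.3% of all genes, with a list median of 0.28 at 12 h, and 0 of 4 passed for the change from uninduced at any stage in edgeR. Zscan10, the one called at 12 h, is a zinc-finger gene of pluripotent cells and had 13, 13 and 8 counts there against 1, 1 and 0 (ratio 19.1, 95% exact interval 4.91 to 164, adjusted p = 0.000531). Dppa2 and Dppa4, which act upstream of Dux in embryonic stem cells, had 0 to 7 counts in the 12 h libraries of both lines and were not tested. Of 16 repressors of the programme all were tested and 0 were higher at any stage. Lower were 0 before induction, 2 on induction and 5, 5, 6 and 5 at the later stages, against 12.2% of all genes when induced, 18.6, 19.6, 18.9 and 7.29% at the later stages. For the change from uninduced less that in Control, 2, 4, 5, 5 and 1 of 16 were lower from induction to 24 h. The shares of all genes lower there were 10.5, 17.5, 18.4, 17.5 and 5.61%. At 12 h Setdb1, an H3K9 methyltransferase, had 105 ± 3.03 CPM in Control and 31.4 ± 7.94 in Activator (SD, n = 3; log2 fold change -1.75, SE 0.15, adjusted p = 2.02e-11). Rif1, which binds late-replicating chromatin and telomeres, was lower, with 288 ± 11.7 CPM in Control and 90.6 ± 16.4 in Activator (-1.67, SE 0.11, adjusted p = 1.7e-13). Zfp809, a KRAB zinc-finger protein that silences retroviruses, stood at 34.1 ± 5.36 against 12.3 ± 3.82 (-1.49, SE 0.2, adjusted p = 1.26e-07). In Activator after induction the highest Setdb1 of each group was in replicate 2, the library with the lowest summed level of the members. The part of these genes in the members' values was not tested.

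MERVL was measured as repeat families, MERVL-int for the inner part and MT2_Mm for the long terminal repeat, as CPM over gene counts. MERVL-int had 797, 715 and 714 in Control at 12 h and 1500, 1280 and 1640 in Activator, a log2 fold change of 0.98 (SE 0.13, adjusted p = 1.86e-10). At 24 h the 783, 814 and 908 of Control stood against 2020, 1110 and 1770, with the lowest value again in replicate 2 (0.95, SE 0.13, adjusted p = 1.55e-09). MERVL-int did not differ past the threshold before induction (0.1, SE 0.13, adjusted p = 1) or on induction (0.27, SE 0.13, adjusted p = 0.0739; without replicate number 2, 0.43, adjusted p = 0.00345) and was higher by 0.49 at 3 h and 0.72 at 6 h (adjusted p = 0.000866 and 1.5e-06). MT2_Mm did not pass on induction (0.14, adjusted p = 0.363) and was higher by 0.51, 0.62, 0.9 and 0.62 from 3 to 24 h (adjusted p = 0.000403, 1.95e-05, 1.39e-09 and 4.32e-05). Of 1492 repeat families tested, 62.5, 59.1, 62.9 and 37.8% had an adjusted p under 0.05 at those stages. Their median log2 fold change was 0.42 at 12 h. Both 3 h calls were lost without replicate number 1 (MERVL-int 0.41, adjusted p = 0.0523; MT2_Mm 0.38, adjusted p = 0.0717). For the change from uninduced less that in Control, MERVL-int did not pass on induction (0.17, adjusted p = 0.515) or at 3 h (0.39, adjusted p = 0.0815) and passed at 6 h (0.62, adjusted p = 0.00495), 12 h (0.88, adjusted p = 4.16e-05) and 24 h (0.85, adjusted p = 0.00024). MT2_Mm passed at 6 h (0.48, adjusted p = 0.0288) and 12 h (0.76, adjusted p = 0.000326) and not at 3 h (0.37, adjusted p = 0.0918) or 24 h (0.48, adjusted p = 0.0596). In that comparison 22.6, 41.5, 38.7, 46.6 and 16.9% of families had an adjusted p under 0.05 from induction to 24 h. The 6 h calls of both families and the 24 h call of MERVL-int were lost without replicate number 1, and the 3 h values of both and the 24 h value of MT2_Mm passed without replicate number 2. The rise of MERVL was thus smaller on the log2 scale than that of Zfp352, and it began from 700 ± 107 CPM in uninduced Control (SD, n = 3). The difference between these rises was not tested.

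**Figure D4:**
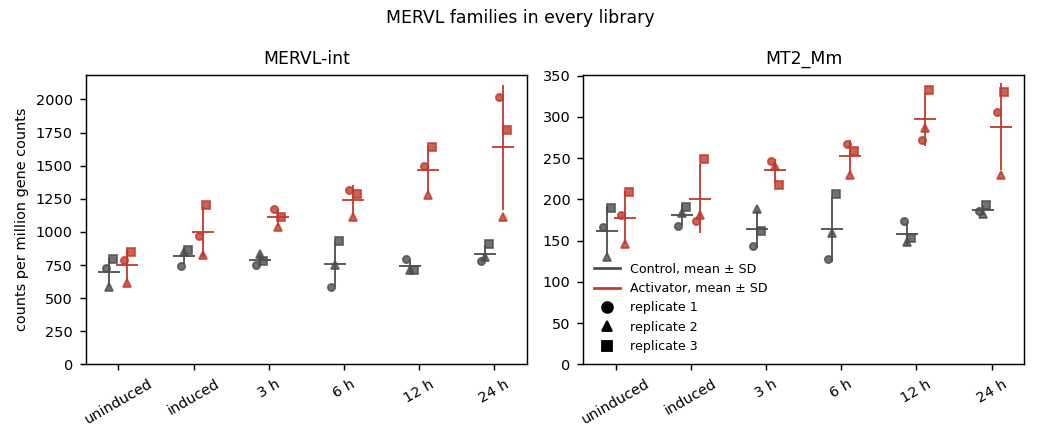
Level of MERVL-int (left) and MT2_Mm (right) as CPM over gene counts (vertical axis, from 0) at the 6 stages, in grey for Control and red for Activator. Symbols are libraries, with the replicate number as their shape, and bars are mean ± SD of 3. MERVL-int in Activator reaches 1280 to 1640 at 12 h, above the 714 to 797 of Control.

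Markers of other cell types were read beside these results. Of 10 pluripotency markers 7 were tested, and 0, 2, 4, 5, 5 and 5 were higher at the 6 stages in order. Of 10 germline markers 5 were tested, and 0 were higher before induction and 3 at each later stage. Of 10 fibroblast markers 9 were tested, and 0, 1, 2, 2, 4 and 5 were lower. After induction 22.1 to 31.3% of all genes and 40.2 to 54.5% of genes in the members' range were called higher. Lower were 7.29 to 19.6% of all genes. For the change from uninduced less that in Control, 1 pluripotency marker was higher at each stage. At 3 h and 24 h 1 was lower. There 3 germline markers were higher at each stage, and 2, 2, 2, 4 and 5 fibroblast markers were lower. The shares of all genes there were 9.14 to 16.4% higher and 5.61 to 18.4% lower. The summed pluripotency level was 35.1 to 44 CPM in uninduced Activator and 16.3 to 23.9 at 12 h, against 18.9 to 26.4 and 11 to 14.8 in Control, and it overlapped with Control at 24 h, with 17.7 to 33.3 against 25 to 33.4. Most of that sum was Tfcp2l1, with 474, 983 and 378 counts in Activator at 12 h and 557, 695 and 451 in Control. Sox2, also singled out after its values were seen, had 69, 47 and 46 counts against 0, 0 and 0. Utf1 had 0 counts in all 36 libraries and Dppa3 0 or 1. The summed germline level at 12 h was 18.8 to 25.1 CPM against 7.5 to 8.76. The 10 germline markers contribute unequally to that sum. Over the 36 libraries Gdf9 had 3 to 652 counts, Sycp1 99 to 318, Sycp3 44 to 152, Nobox 0 to 94 and Ddx4 1 to 64. Dazl, Mael, Tex101, Oog3 and Zp3 had at most 6. The part of these shifts in the members' values was not tested.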

How the data were processed

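RNA of 36 MEF libraries, 12 groups of 3, was analysed. The authors trimmed reads with cutadapt, aligned them to GRCm38 with STAR and used TEtranscripts for the counting, and the deposited values are raw counts per gene or repeat family. The annotation release, the strand setting and the sharing of multi-mapped reads are not given in the sources used here, and the last can move counts between the Zscan4 copies. Of the table, 54842 genes and 1561 repeat families were used, and 1 unnamed entry, at most 0.00452% of a library, was left out. No 2 libraries were identical.

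Genes were tested in R 4.3.3 with edgeR 4.0.16 (filterByExpr by group, TMM, robust quasi-likelihood fit of 12 groups with the replicate number as in the study's design, Benjamini-Hochberg over 28536 genes). A call needed an adjusted p under 0.05 and a log2 fold change beyond 1. Standard errors were derived from the F statistic, as |log2 fold change| over its root. Families of repeats were scaled by gene library sizes and had no limit on the fold. Members that missed the filter were compared by exact permutation of log2 CPM (prior count 0.5). Ratios where a group had 1 to 3 counts carry 95% exact conditional binomial intervals. Exon lengths, positions and transcript comparisons are from GENCODE M21, and promoters from RefSeq. The edgeR p-values rest on a single estimate of the spread between replicates per gene, shared by all 12 groups and moderated across genes. Each line was kept as a mixed culture, so no p-value covers differences between independently made lines. The edgeR fit was also run on simulated counts with the same spread for every gene and no replicate effect. That setting does not cover the low and uneven counts of the members. Alternatives were DESeq2 1.42.0, other scalings and filters, other sets of libraries and leaving out each library.

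The members and all lists were chosen with earlier results of these data known. All 9 members are named. Of the other lists, up to 3 that rose most and 3 that fell most at 12 h, among those called, are named. Likeness was Pearson's r over 12 group means, for members averaging 10 or more normalised counts. Dppa2, Dppa4, Pdgfrb, Tfcp2l1 and Sox2 were named after their values were seen.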

Additional observations from a re-analysis of the deposited data

Results flagged for a closer look

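For 9 values of members and 5 of MERVL families the change from the uninduced state differed between the lines by the test of that difference in edgeR. Zfp352 differed at 3 h (adjusted p = 0.0452), 6 h (adjusted p = 0.0277), 12 h (adjusted p = 0.00806) and 24 h (adjusted p = 0.0211), higher in Activator each time. The 3 h call was lost without Control uninduced replicate 2 or 3, Control 3 h replicate 1 or 3, any uninduced Activator replicate, or Activator 3 h replicate 2 or 3, with adjusted p from 0.0535 to 0.173. The 6 h call was lost without Control uninduced replicate 3, Control 6 h replicate 1 or 3, or Activator uninduced replicate 1, with adjusted p from 0.0543 to 0.119. The 24 h call was lost without Control uninduced replicate 3, Control 24 h replicate 3, Activator uninduced replicate 1 or Activator 24 h replicate 1, with adjusted p from 0.0544 to 0.0923.

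Usp17la differed at 3 h (adjusted p = 0.00827) and 6 h (adjusted p = 0.0283), with a change from uninduced that was lower in Activator than in Control. Its level was higher in Activator before induction. In Control its mean rose from 0.158 CPM uninduced to 0.474 at 3 h and 0.562 at 6 h. Activator had 0.628 CPM uninduced, 0.448 at 3 h and 0.688 at 6 h. The 6 h call was lost without Control uninduced replicate 1 or 3, Control 6 h replicate 1 or 3, Activator uninduced replicate 1 or 2, or Activator 6 h replicate 1 or 2, with adjusted p from 0.0504 to 0.0809.

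Zscan4f differed at 6 h (adjusted p = 0.0294), lost without Control uninduced replicate 2 or 3, Control 6 h replicate 1 or 2, Activator uninduced replicate 1 or Activator 6 h replicate 1, with adjusted p from 0.0538 to 0.113. Zscan4c differed at 12 h (adjusted p = 0.0408), lost without Control uninduced replicate 1 or 2, Control 12 h replicate 1 or 3, Activator uninduced replicate 1 or 3, or Activator 12 h replicate 2, with adjusted p from 0.0558 to 0.275. Tcstv3 differed at 24 h (adjusted p = 0.0138), lost without Control uninduced replicate 2 (adjusted p = 0.054).

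MERVL-int differed at 6 h (adjusted p = 0.00495), 12 h (adjusted p = 4.16e-05) and 24 h (adjusted p = 0.00024), and MT2_Mm at 6 h (adjusted p = 0.0288) and 12 h (adjusted p = 0.000326). Without replicate number 1 the adjusted p was 0.232 and 0.146 for MERVL-int at 6 and 24 h and 0.499 for MT2_Mm at 6 h.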

How the results depend on the processing

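Counts of members called changed with the setting more than their direction did. With scaling to mitochondrial mRNAs the counts for Activator against Control were 0 before induction, 3 at 3 h, 3 at 6 h and 2 at 12 h, those for the change from uninduced 1 at 3 h and 1 at 12 h, and that for Activator induced against uninduced 2. With only the groups compared they were 2 when induced, 2 at 6 h, 4 at 12 h and 2 at 24 h, for the change from uninduced 1 when induced, 0 at 6 h and 1 at 24 h, and 2 for Activator induced against uninduced. With fewer libraries fewer members passed the filter. DESeq2 size factors or no filter gave 2 when induced, and no filter or library size without TMM gave 1 for the change at 3 h. Usp17la at 3 h turned to 0.03 with DESeq2, with DESeq2 size factors and with only the groups compared, and at 6 h to -0.42 with mitochondrial scaling. For the change from uninduced, library size without TMM gave 0.44 for MERVL-int at 6 h, 0.3 for MT2_Mm at 6 h and -0.1 for MT2_Mm on induction. With no limit on the fold change no count moved by over 1.5 times. A mean normalised count above 100 left no member to test. The cause of these changes was not tested.

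Leaving out replicate numbers or single libraries, the calls for Activator against Control ranged from 0 to 1 before induction, 0 to 2 when induced, 2 to 5 (3 h), 3 to 5 (6 h), 3 to 6 (12 h) and 3 to 6 (24 h). For the change from uninduced they ranged from 0 to 1 when induced, 0 to 2 (3 h), 0 to 3 (6 h), 0 to 3 (12 h) and 0 to 2 (24 h), for Activator induced against uninduced from 1 to 6 and over the time course from 5 to 7. Zscan4d when induced ranged from -0.13 to 1.34 and Usp17la at 3 h from -0.35 to 0.16. MERVL-int ranged from 0.17 to 0.43 when induced and from 0.41 to 0.58 at 3 h, and MT2_Mm from 0.38 to 0.62 at 3 h, and each crossed the threshold once (without replicate 2 when induced, adjusted p = 0.00345; without replicate 1 at 3 h, adjusted p = 0.0523 and 0.0717). For the change from uninduced MERVL-int ranged from 0.32 to 0.47 (3 h), 0.43 to 0.75 (6 h) and 0.63 to 1.06 (24 h), and MT2_Mm from -0.12 to 0.09 on induction, 0.23 to 0.48 (3 h), 0.27 to 0.65 (6 h) and 0.4 to 0.61 (24 h).

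The replicate number was kept as block, as in the study's design. With no replicate block 0 members were called before induction in place of 1, no other count moved by over 1.5 times, and MT2_Mm at 6 h was 0.47 (adjusted p = 0.0774) for the change from uninduced. Deviations of same-numbered libraries of the lines correlated at -0.00297 to 0.459, and 32 of 36 libraries matched their own number best, so the numbers may not mark pairs at every stage. Depth limits Duxf3, Tcstv1 and Tcstv3, whose groups held few counts, and calls at 3 replicates rested on single libraries in many cases, with 20 of 44 called values held without each library.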
